A study of Homo sapiens with 11 samples.

Results

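NEFL and NEFM encode the light and the medium neurofilament chain, and both genes were read here in human cardiomyocytes grown from a stem cell line. They were 2 of the 36601 features counted and were taken by symbol. They were selected on their levels with against without PD173074, where both were low in the chambered cardioids given it, so that difference is given as a description. All cells came from H9, a human embryonic stem cell line, and were collected on day 42.5. The 3 groups were a 2D culture, chambered cardioids (self-organised heart-like tissues with a cavity) without PD173074, and chambered cardioids with PD173074, an inhibitor of fibroblast growth factor receptors. The labels name no separate cultures, give neither the dose nor the time of the inhibitor, and allow v2 or v3 chemistry without saying which library used which. All 3 groups share 1 cell line and 1 dissociation method.

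Neurofilaments are intermediate filaments best known from axons, where the light, medium and heavy chains assemble together and set the calibre of the fibre. The light chain forms the core of the filament, and the medium chain adds a long tail that projects from it. In the heart, neurofilament protein has been used as a marker of parts of the conduction system in some species. The conduction system is also where TBX3, a T-box repressor that keeps conduction cells from becoming working muscle, is expressed. RSPO3 is a secreted protein that strengthens Wnt signalling.

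The 11 libraries held 3 runs of the 2D culture, 5 of the cardioids without PD173074 and 3 of the cardioids with it. Runs of a group shared 99.3% to 99.9% of their cell barcodes, with a correlation of log10 UMI totals of at least 0.998, while runs of different groups shared 0.195% to 0.737%. The runs of a group were therefore treated as repeat sequencing of the same droplets, so each group is 1 sample. Values are means over runs, no difference between groups could be tested, and every interval below is a 95% interval that covers counting error only. Runs held 43908067 to 46304366 UMIs in the 2D culture, 12266166 to 24495291 without PD173074 and 36127841 to 37765195 with it. Run 3 of the cardioids without PD173074 was the shallowest library.

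After filtering, 8183, 3534 and 4597 cells remained in the 2D culture, the cardioids without and the cardioids with PD173074, and 7237, 3146 and 3393 of them lay in cardiomyocyte-like clusters. These clusters were made with NEFL, NEFM, TBX3 and RSPO3 withheld, and were called cardiomyocyte-like from 11 markers such as TNNT2 and RYR2, all of which were above 10 UMIs per 1000000 UMIs (CPM) in each group. The names are rebuilt from markers and may differ from those of the study. Of the cardiomyocyte-like cells of the cardioids without PD173074, 887 (28.2%) lay in clusters dominated by 2D cells and 430 (13.7%) in clusters dominated by cells given PD173074. Among these, 5 and 1 barcodes also occurred in the sample that dominated the cluster. A cluster is dominated by a sample where over 75% of its cells came from it. Group levels, shares, co-detection with TBX3 and RSPO3, and shares by the named subtype markers without PD173074 were also read without these cells, while values per cluster and the genes leading in positive cells were not.

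In cardiomyocyte-like cells NEFL stood at 107, 104 and 108 CPM in the 3 runs of the 2D culture. In the 5 runs without PD173074 it stood at 118, 115, 140, 112 and 114 CPM. In the 3 runs with PD173074 it stood at 15.7, 14.1 and 14.4 CPM. Runs of a group repeat the same droplets, so their spread gives no measure of variation between cultures. The group means were 106 CPM (103 to 110) in 2D, 120 CPM (115 to 125) without PD173074 and 14.7 CPM (13.2 to 16.4) with it.

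NEFM stood at 44.7, 43.8 and 44.3 CPM in the runs of the 2D culture. In the 5 runs without PD173074 it stood at 74.7, 74.1, 93.7, 73.2 and 74.6 CPM, and in the 3 runs with PD173074 at 3.78, 4.22 and 4.43 CPM. Run 3 of the cardioids without PD173074 lay above the other 4 runs for both genes. The group means were 44.2 CPM (42.1 to 46.5), 78.1 CPM (74 to 82.3) and 4.14 CPM (3.36 to 5.06). The order of the groups was therefore the same for both genes, with the cardioids without PD173074 highest and those with it lowest.

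**Figure D1:**
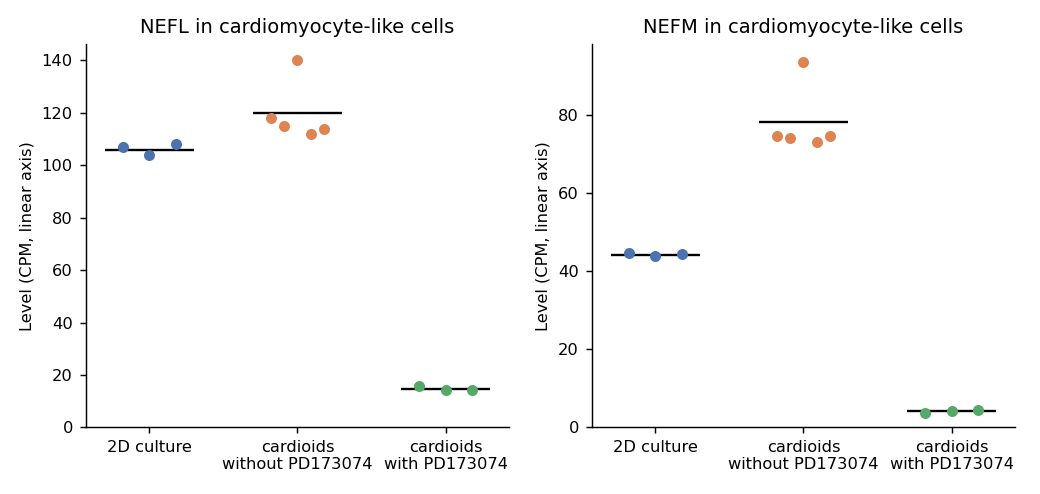
NEFL and NEFM in cardiomyocyte-like cells by run, in CPM, for the 2D culture (3 runs), the cardioids without PD173074 (5 runs) and the cardioids with PD173074 (3 runs). Points are runs of the same droplets and not replicates, and the NEFL points with PD173074 lie between 14.1 and 15.7 CPM against 112 to 140 CPM without it.

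Without against with PD173074, the contrast that chose the genes, NEFL fell by 3.02 on the log2 scale with the inhibitor (interval -3.19 to -2.86, 8.14-fold lower) and NEFM fell by 4.24 (interval -4.55 to -3.94, 18.8-fold lower). A gene is counted here as lower or higher where its level in at least 1 of the groups was 10 CPM or more and no part of its counting interval lay within 2-fold. Both genes met this rule, against 1.92% of the 10590 genes compared, and nothing is read from that count since the rule of selection used it. NEFM ranked 4th and NEFL 18th from the lowest ratio. Without the clusters dominated by another sample, the log2 ratios were -3.27 (interval -3.45 to -3.09) for NEFL and -4.70 (interval -5.03 to -4.38) for NEFM.

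The 2D culture is a comparison that shares its samples with the others, so the values are only set side by side. Cardioids without PD173074 exceeded the 2D culture by 0.17 on the log2 scale for NEFL (interval 0.10 to 0.25, 1.13-fold) and by 0.82 for NEFM (interval 0.71 to 0.92, 1.76-fold). Neither gene lay wholly beyond 2-fold, where 1.01% of 10422 genes were higher. Without the clusters dominated by another sample, NEFM stood at 97.5 CPM without PD173074 and 44.1 CPM in 2D, a log2 ratio of 1.15 (interval 1.03 to 1.26), which met the rule that 1.88% of 10530 genes met. The call of NEFM as higher in cardioids than in 2D thus turned on these cells, whose own level was 50 CPM. NEFL did not meet the rule either way, at 133 CPM without PD173074 and 107 CPM in 2D.

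Against the 2D culture, cardioids with PD173074 were lower by a log2 ratio of -2.85 for NEFL (interval -3.01 to -2.69, 7.21-fold) and -3.42 for NEFM (interval -3.73 to -3.12, 10.7-fold). Both genes met the rule for lower genes, which 2.73% of 10661 genes met. NEFM ranked 14th and NEFL 38th from the lowest ratio. The low values with PD173074 that chose the genes enter here too, so nothing is read from the count or the ranks.

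The share of cells in which a gene was seen depends on depth, so each cell was thinned to 2000 UMIs, which left out 649, 259 and 296 shallower cells. NEFL was seen in 18.2% of cardiomyocyte-like cells in 2D (exact binomial interval 17.3 to 19.1), 18.1% without PD173074 (16.7 to 19.6) and 2.6% with it (2.07 to 3.23). The NEFL share therefore did not separate the 2D culture from the cardioids without PD173074. NEFM was seen in 7.75% of cells in 2D (7.12 to 8.42), 10.3% without PD173074 (9.24 to 11.5) and 0.71% with it (0.445 to 1.07), and the 3 intervals did not meet. Without thinning the shares were 33.9%, 34.9% and 8.11% for NEFL and 15.7%, 20% and 2.29% for NEFM.

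Free RNA can place UMIs in cells that do not express a gene, so the same share was read in the stromal-like and cartilage-like cells. There NEFL was seen in 2.7%, 1.15% and 0.168% of thinned cells in the 2D culture, without and with PD173074. NEFM was seen in 1.22% and 1.11% of them in the first 2 groups and in 0 of 597 cells with PD173074, which allows a share of up to 0.503%. The cardiomyocyte shares lay above these in every group. Before thinning, the stromal-like and cartilage-like cells were deeper in each group, at medians of 9484, 6211 and 8207 UMIs against 4292, 5158 and 6287. Their shares may therefore not give the background of the shallower cardiomyocyte-like cells, which was not tested. With PD173074 the lower bound of the NEFM share in cardiomyocyte-like cells, 0.445%, lay below the limit of 0.503%. NEFM there was thus close to what counting could separate from background.

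The groups also differed in how much of each transcript a positive cell held. Over all cardiomyocyte-like cells with a NEFM UMI, unthinned, the mean was 2.16 NEFM UMIs per cell without PD173074, 1.37 in 2D and 1.24 with PD173074, and the highest cell of a run held 28, 11 and 7. Cells with a single NEFM UMI were 56.1% of the positive cells without PD173074, 74.2% in 2D and 85.1% with it. NEFL gave 1.91, 1.53 and 1.25 UMIs per positive cell in the same order. The deposited runs did not resolve every cell: of the cells with NEFM in 1 run, 50.3% to 70.7% had it in another run of the same droplets.

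The light and the medium chain were seen in the same cells more often than the product of their shares. Both were detected in 3.97% of thinned cells without PD173074 (3.29 to 4.75), where the product of the shares is 1.87%, a ratio of 2.12. In 2D both were detected in 2.16% of cells (1.82 to 2.54) against a product of 1.41%, a ratio of 1.53. With PD173074 only 2 cells per run had both. Of NEFM-positive cells without PD173074, 38.3% also had NEFL, against 15.8% of NEFM-negative cells, and in 2D these shares were 27.9% and 17.4%.

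Cells with neurofilament transcripts were read here within the cardiomyocyte-like clusters. TNNT2, cardiac troponin T, was 1 of the 11 markers that called these clusters, so a high share was set in advance. It was seen in 95.7%, 98.5% and 94.2% of NEFM-positive cells in 2D, without and with PD173074. Over all thinned cardiomyocyte-like cells it was seen in 96.3%, 98.1% and 96.5%. A list of 18 neuron markers summed to 62.8 CPM in cells positive for NEFL or NEFM and 63.4 CPM in cells with neither in 2D, to 59.5 and 64.4 CPM without PD173074, and to 115 and 110 CPM with it. The ratio of these sums was 0.991, 0.923 and 1.05, so they differed little. TH and DBH, enzymes of catecholamine synthesis, were at 0 in the positive cells in every group. A 0 allows up to 3 counts, and with PD173074 only 100 cells per run were positive. Any UMI of the neuron list was found in 10.4%, 10% and 14.8% of cells with a neurofilament UMI and in 10.6%, 10.6% and 15.7% of cells without one.

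The remaining neurofilament partners were almost absent. NEFH, the heavy chain, stood at 0.407, 0.521 and 0.386 CPM in 2D, without and with PD173074. INA, alpha-internexin, stood at 0.257, 0.72 and 1.13 CPM, and PRPH, peripherin, at 0, 0.0891 and 0.043 CPM. All 3 were far below 10 CPM in each group, so no ratio is given for them. The light and medium chains were thus the 2 neurofilament genes read at measurable levels in these cardiomyocytes.

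Of 17 intermediate filament genes, 12 reached 10 CPM in the comparison of cardioids with and without PD173074. NEFL, NEFM and KRT19, a simple epithelial keratin, were lower with the inhibitor (3 of 12, where 1.92% of all genes were lower), and DES, the muscle filament desmin, was higher (1 of 12, against 2.6% of all genes). KRT19 stood at 11.9 CPM with and 67.5 CPM without PD173074 (log2 ratio -2.51), and DES at 90.6 and 33.4 CPM (log2 ratio 1.44). The list's median log2 ratio was -0.46, against -0.071 over all genes. NEFL and NEFM were chosen on this contrast, and without them KRT19 was the 1 of 10 lower, DES the 1 of 10 higher, and the median was -0.34. VIM, vimentin, stood at 718, 1051 and 960 CPM in 2D, without and with PD173074, NES, nestin, at 68.4, 129 and 72.2 CPM, and LMNA, a nuclear lamin, at 160, 147 and 97.6 CPM. None of these 3 met the rule in that comparison. Over all filtered cells, which also hold epithelial-like cells, KRT19 was higher with PD173074, with DES and KRT18 (3 of 13, against 3.21% of all genes), and NEFL and NEFM were the 2 that were lower (against 1.85% of all genes).

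Between the cardioids without PD173074 and the 2D culture, none of the 12 intermediate filament genes met the rule, where 1.01% of all genes were higher and 0.134% lower. The list's median log2 ratio was 0.12, against 0.055 over all genes. At 1.5-fold, NEFM, DES and NES were higher in cardioids (3 of 12, against 2.54% of all genes). Against the 2D culture, NEFL, NEFM and KRT19 were lower in cardioids with PD173074 (3 of 12, against 2.73% of all genes). KRT19 stood at a log2 ratio of -2.53. Low levels with PD173074 chose NEFL and NEFM, and without them 1 of 10 was lower. DES was higher than in 2D by 2.51 on the log2 scale (1 of 12, against 4.92% of all genes). At 1.5-fold LMNB1, a nuclear lamin, was also higher there (2 of 12, against 8.58% of all genes).

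Genes that neurons use followed no single direction beside NEFL and NEFM. Of the 18 neuron markers 4 were expressed enough to compare, and with PD173074 SNAP25, a protein of synaptic vesicle fusion, was higher (55.3 against 21.3 CPM, log2 ratio 1.38) as was SYT1, a calcium sensor of vesicle release (30.8 against 10.1 CPM, log2 ratio 1.60). These were 2 of 4, against 2.6% of all genes. None of the 4 was lower than without PD173074 by the 2-fold rule, and at 1.5-fold TUBB3 was (1 of 4, against 4.59% of all genes). TUBB3, a neuronal tubulin, was lower with PD173074 than in 2D, at 6.6 against 20.5 CPM (log2 ratio -1.64, 1 of 4 against 2.73% of all genes). SNAP25 and SYT1 were higher than in 2D, at 55.3 against 18.4 CPM (log2 ratio 1.59) and 30.8 against 6.2 CPM (log2 ratio 2.31), again 2 of 4, against 4.92% of all genes. Summed over the neuron list, the runs spanned 62.7 to 64 CPM in 2D, 62.6 to 64.2 CPM without PD173074 and 110 to 111 CPM with it. The groups with the most NEFL and NEFM were therefore not the group with the most transcripts of the neuron list.

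Among 17 genes for the handling of filaments (chaperones, motors, linkers, kinases and turnover factors) 13 could be compared between cardioids with and without PD173074, and 1 met the rule, as a lower gene, where 1.92% of all genes did. HSPB8, a small heat shock protein, stood at 11.5 CPM with and 38.7 CPM without PD173074, a log2 ratio of -1.75. The list's median log2 ratio was -0.24, against -0.071 over all genes. REST, the repressor that keeps neuronal genes silent in other cells, stood at 67.8, 84.6 and 82.2 CPM in 2D, without and with PD173074, and its log2 ratio with against without the inhibitor was -0.04. RCOR1, a corepressor of REST, stood at 59.6, 70.5 and 64.5 CPM. Of 9 regulators of neuronal genes 4 could be compared, and ISL1, a LIM homeobox factor of neurons and of pacemaker cells, was the 1 that met the rule. It was higher with PD173074, at 18.8 against 4.82 CPM (log2 ratio 1.97), 1 of 4 against 2.6% of all genes.

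NEFM and NEFL lie next to each other on chromosome 8. In the GENCODE 29 annotation of GRCh38, NEFM spans 24913012 to 24919098 on the plus strand with 3 exons, and NEFL spans 24950955 to 24957110 on the minus strand with 4 exons. The genes lie 31856 bases apart. Of the 5 protein-coding genes on each side, 3 reached 10 CPM. STC1, the hormone stanniocalcin, stood at 13.4, 10.8 and 2.16 CPM in 2D, without and with PD173074, and was lower with the inhibitor (log2 ratio -2.32). DOCK5 stood at 16.1, 13.6 and 13.4 CPM and KCTD9 at 22.6, 19.3 and 17.6 CPM, and neither met the rule. STC1 was thus the 1 of 3 readable neighbours that was lower, against 1.92% of all genes. It passed the floor of 10 CPM in this comparison only through its level without PD173074, so nothing is read from the count.

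Within the cardiomyocyte-like cells the genes were unevenly spread over the clusters. Without PD173074, 68.8% of NEFM UMIs came from cluster 4, which held 43.7% of the cells and was led by PTGER3, CRHBP, EPHA4 and TENM2. NEFM stood at 119 CPM there (112 to 127), the highest of the 23 units of sample and cluster with at least 50 cells, and NEFM and TBX3 were both among that cluster's 10 leading genes although neither was used to build it. Cells of cluster 2, led by RGS4, ALDH1A2 and WNT2, stood at 91.6 CPM without PD173074 and 61.8 CPM in 2D, and this cluster was dominated by 2D cells. The lowest cluster of the 2D culture was cluster 12, led by MYL2 and MYH7 of ventricular muscle, at 5.1 CPM of NEFM.

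With PD173074, NEFM was at or below 3 CPM in clusters 13, 3, 11 and 8, and at 11.5 CPM in cluster 6, led by TFPI2, CNTNAP5, GADL1 and GFRA1. Cluster 6 held 16.9% of the cardiomyocyte-like cells with PD173074 and 47.4% of their NEFM UMIs. In cluster 11 of the cardioids without PD173074, led by CDH20, SHOX2, MYH11 and BMP4, NEFM was at 0 in 79 cells, which allows up to 9.75 CPM, and this cluster was dominated by cells given PD173074. NEFL stood at 172 and 158 CPM in clusters 2 and 4 without PD173074, at 142 CPM in cluster 2 of the 2D culture, and at 25.3 CPM in cluster 6 with PD173074. It was lowest with PD173074 in cluster 8, led by FGF12 and ZNF536, at 5.94 CPM.

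**Figure D2:**
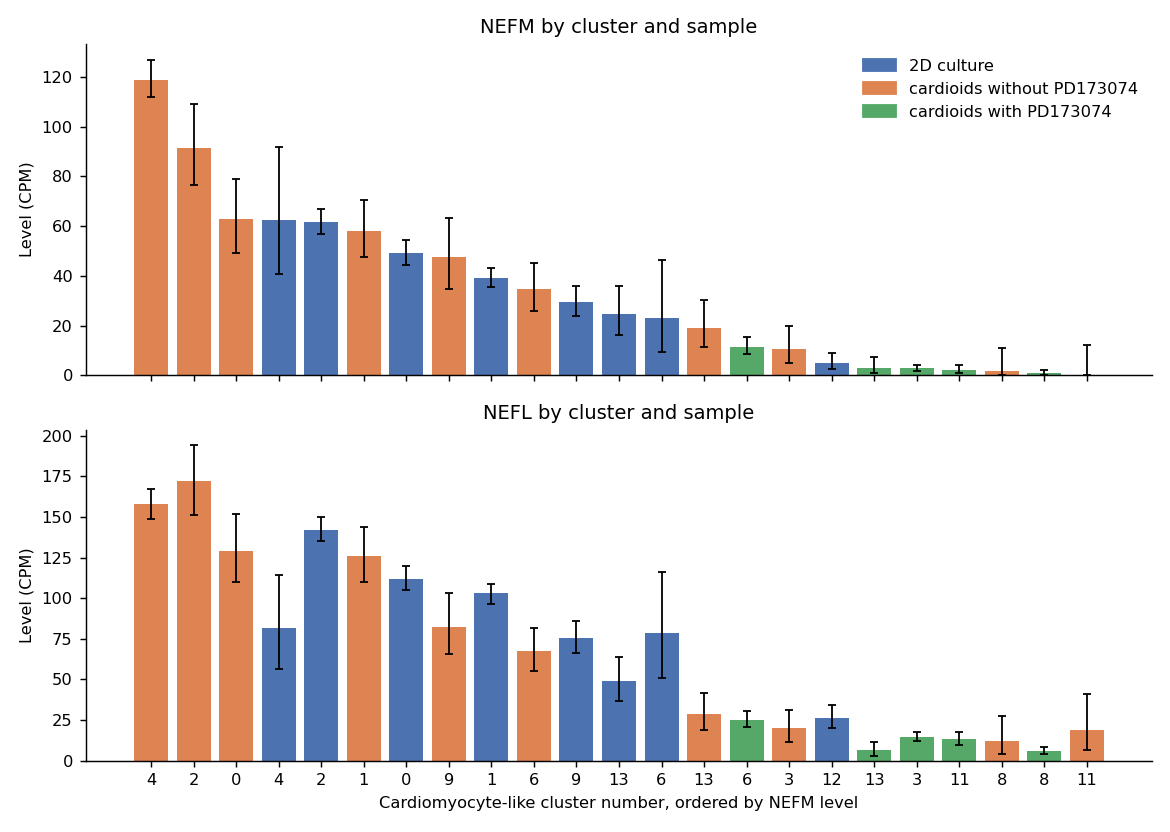
NEFL and NEFM in CPM (linear axis) in each cardiomyocyte-like cluster of each sample with at least 50 cells, with 95% counting intervals. NEFM is highest in cluster 4 of the cardioids without PD173074, at 119 CPM, and the units of the cardioids with PD173074 lie at the low end.

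Clusters present in both kinds of cardioid allowed the genes to be read within a cluster, still with 1 sample a group. Clusters 6 and 13 were dominated by no sample, while clusters 3, 8 and 11 were dominated by cells given PD173074. In cluster 6 the log2 ratio with against without PD173074 was -1.42 for NEFL (interval -1.83 to -1.01) and -1.59 for NEFM (interval -2.19 to -0.99). In cluster 13, led by the mitotic genes TOP2A and MKI67, it was -2.17 (interval -3.38 to -1.08) and -2.68 (interval -4.53 to -1.17). In cluster 3, led by the atrial genes NR2F1 and NPPA, it was -0.44 for NEFL (interval -1.16 to 0.36) and -1.98 for NEFM (interval -3.12 to -0.73). NEFM was thus lower with PD173074 in clusters 6, 13 and 3, while the NEFL interval of cluster 3 held 0. In cluster 8 the NEFL ratio was -1.06 (interval -2.37 to 0.54) and in cluster 11 it was -0.51 (interval -1.77 to 1.04). NEFM with and without PD173074 was at 0.86 and 1.57 CPM in cluster 8, and at 2.03 and 0 CPM in cluster 11, too low to compare. The intervals of NEFM in clusters 6 and 3 did not reach the -4.24 read over all cardiomyocyte-like cells, and that of cluster 13 did.

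Between the cardioids without PD173074 and the 2D culture, NEFM was higher in cardioids by 0.57 on the log2 scale in cluster 1 (interval 0.25 to 0.89), 0.57 in cluster 2 (interval 0.28 to 0.84) and 0.93 in cluster 4 (interval 0.37 to 1.55). In cluster 0, led by USP18, FGF18 and FABP7, the ratio was 0.35 and its interval held 0 (-0.027 to 0.71). NEFL in cluster 4 was higher in cardioids by 0.95 (interval 0.46 to 1.49). In cluster 9 the NEFM ratio was 0.69 (interval 0.15 to 1.22) and the NEFL ratio 0.12 (interval -0.26 to 0.50). All of these clusters but cluster 4 were dominated by 2D cells, and cluster 4 by cells without PD173074, so 1 side of each ratio rests on cells in a cluster dominated by another sample. In the clusters dominated by no sample the direction was not the same. In cluster 13 NEFL was lower in cardioids, at a log2 ratio of -0.77 (interval -1.49 to -0.079), and NEFM was at -0.36 (interval -1.30 to 0.55). In cluster 6 the ratios were -0.22 for NEFL (interval -0.85 to 0.47) and 0.60 for NEFM (interval -0.52 to 1.94).

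TBX3 and RSPO3 were also higher in the cardioids without PD173074 than with it. TBX3 stood at 91.4, 260 and 61.4 CPM and RSPO3 at 745, 1051 and 118 CPM in 2D, without and with PD173074. Their log2 ratios with against without the inhibitor were -2.08 and -3.16. At the level of samples, all 4 genes were therefore lowest with PD173074. In single cells the relation was different.

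Without PD173074, NEFM was seen in 6.69% of the 746 thinned cells that had both TBX3 and RSPO3 (5.01 to 8.73), in 10.5% of the 202 with TBX3 alone (6.64 to 15.6), in 12.3% of the 1146 with RSPO3 alone (10.5 to 14.4) and in 10.8% of the 794 with neither (8.75 to 13.2). Cells with both TBX3 and RSPO3 thus had NEFM less often than cells with neither, by a ratio of 0.618, and their intervals did not meet. The same cells read at full depth gave 48.8 CPM of NEFM with both genes, 92 with TBX3 alone, 86.8 with RSPO3 alone and 94.1 with neither. Without thinning the ratio of shares turned to 1.81, at 20.8% with both and 11.5% with neither, and those cells had median depths of 5595 and 3574 UMIs. In the cells with at least 2000 UMIs, not thinned, it was 1.48, at median depths of 5634 and 4087 UMIs, and the part of depth was not tested. Without the clusters dominated by another sample it was 0.356.

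NEFL without PD173074 was seen in 16.1% of cells with both TBX3 and RSPO3 (13.5 to 18.9), 17.6% with TBX3 alone, 21% with RSPO3 alone (18.6 to 23.4) and 16% with neither (13.6 to 18.8). NEFL did not separate cells with both from cells with neither. Without the clusters dominated by another sample, the NEFL shares were 15.8% with both and 21.9% with neither.

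In the 2D culture NEFM was seen in 6.18% of cells with both TBX3 and RSPO3 (4.52 to 8.23) and 7.44% of cells with neither (6.4 to 8.6), and NEFL in 18.3% and 17.6%. Both pairs of intervals overlapped. With PD173074 only 46 thinned cells had both TBX3 and RSPO3, and NEFM was seen in 0.667% of these and 0.771% of the 2334 cells with neither, which cannot be told apart at this depth.

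**Figure D3:**
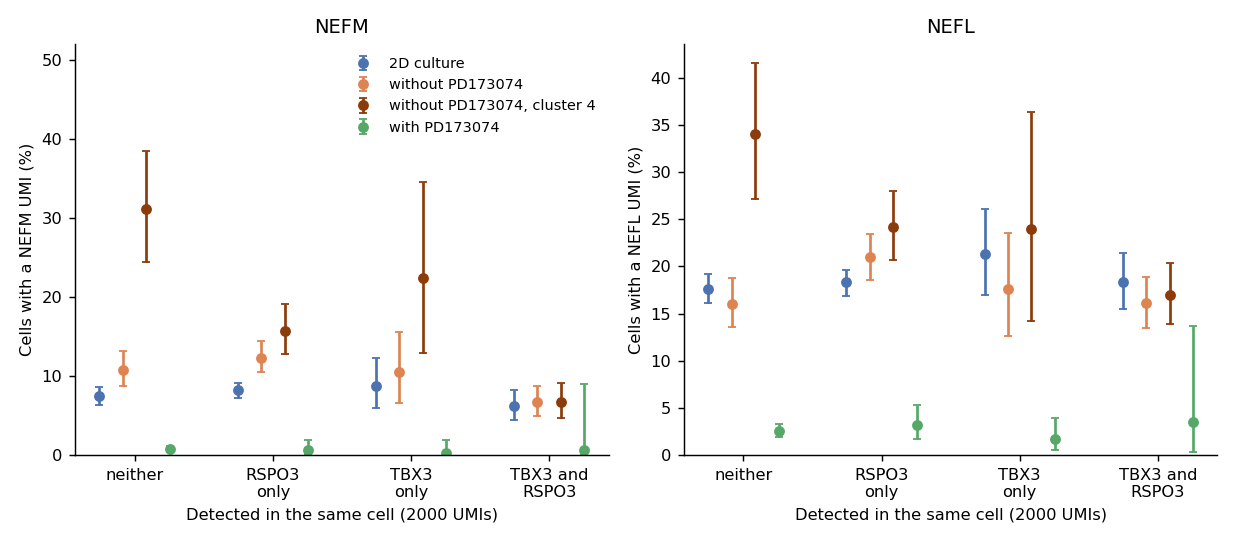
Percent of cardiomyocyte-like cells with a NEFL or a NEFM UMI, after thinning to 2000 UMIs, in cells with TBX3 and RSPO3, TBX3 alone, RSPO3 alone or neither, by sample, with exact 95% binomial intervals. Without PD173074 the NEFM share is 6.69% in cells with both genes against 10.8% in cells with neither.

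The relation was sharpest within cluster 4 of the cardioids without PD173074, which held most of the NEFM. There NEFM was seen in 6.73% of the 531 cells with both TBX3 and RSPO3 (4.75 to 9.2), 22.4% of the 63 with TBX3 alone (12.9 to 34.6), 15.7% of the 547 with RSPO3 alone (12.8 to 19.1) and 31.1% of the 177 with neither (24.4 to 38.5). At full depth this was 52.4, 204, 121 and 281 CPM of NEFM. NEFL was seen in 17% of the cells with both (13.9 to 20.4) and 34% of those with neither (27.1 to 41.5). Median depth was alike in the 4 kinds of cells, at 5220.2, 5414, 5189 and 5136 UMIs. Without thinning, the NEFM share in cluster 4 was 20.9% with both genes (18.2 to 23.7) and 45.9% with neither (34.7 to 57.4), the same direction.

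Cluster 4 was thus high in both NEFM and TBX3 as a whole, while inside it the cells richest in NEFM were those without a TBX3 or RSPO3 UMI. By TBX3 UMIs per thinned cell in cluster 4, the NEFM share was 19.5% at 0 UMIs (16.7 to 22.6), 10.2% at 1 (7.12 to 13.9), 7.77% at 2 (4.02 to 13.3) and 4.23% at 3 or more (1.36 to 9.71). By RSPO3 UMIs it was 28.9% at 0 (23.2 to 35.1), 21.5% at 1, 14% at 2 and 7.62% at 3 or more (5.75 to 9.86). NEFL in the same cells went from 26.6% to 13.7% over the TBX3 steps and from 31.5% to 18.6% over the RSPO3 steps. Over all cardiomyocyte-like cells without PD173074, the NEFM share went from 11.7% at 0 TBX3 UMIs to 4.44% at 3 or more, and NEFL from 19% to 13.2%. The RSPO3 steps showed no such fall over all these cells, with NEFM at 10.8%, 13.4%, 11.5% and 7.86% and NEFL at 16.4%, 20%, 20.2% and 18.1%. By TBX3 in 2D, NEFM was 7.89%, 7.05%, 7.33% and 3.5% over the same steps.

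**Figure D4:**
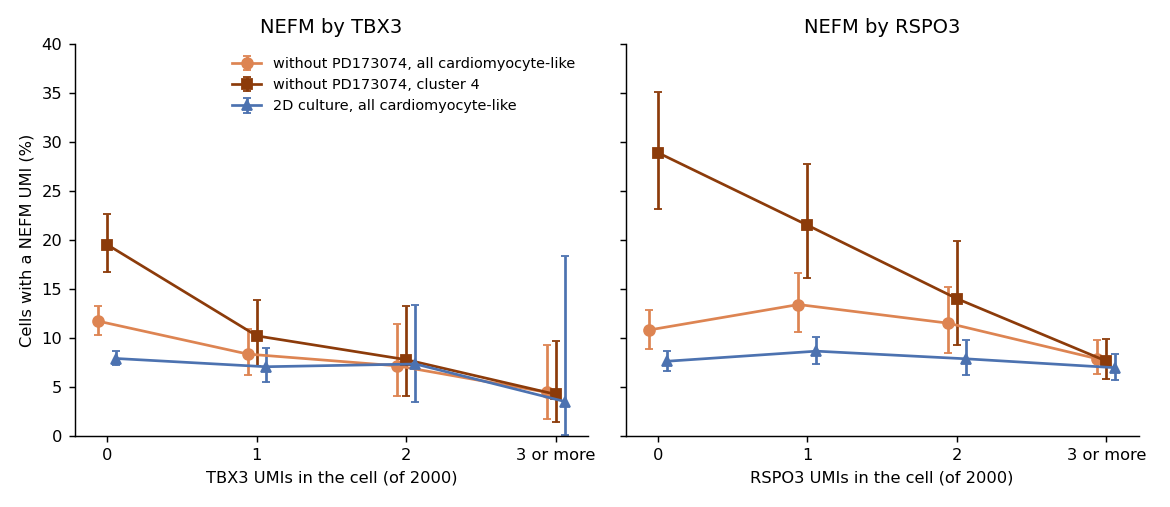
Percent of cells with a NEFM UMI by the number of TBX3 or RSPO3 UMIs in the same cell, after thinning to 2000 UMIs. Bars are exact 95% binomial intervals. The cells are those of the 2D culture, of the cardioids without PD173074 and of cluster 4 of these cardioids. Over all cardiomyocyte-like cells without PD173074, NEFM lies at 11.7% where TBX3 is at 0 UMIs and at 4.44% where TBX3 has 3 or more.

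Read the other way, TBX3 was seen in 23.8% of NEFM-positive and 33.8% of NEFM-negative cells without PD173074, and RSPO3 in 64.2% and 65.8%. In cluster 2 of the 2D culture, NEFM was seen in 8.9% of cells with both TBX3 and RSPO3 and 12.5% of cells with neither. The corresponding levels were 53.7 and 69.8 CPM, a smaller gap than in cluster 4 of the cardioids without PD173074. That difference between clusters was not tested.

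Some markers of the atrium and ventricle marked cells with less neurofilament. How many of all genes would split NEFL or NEFM shares was not measured. Nothing is therefore read from the counts of markers here or below. Without PD173074, NEFM was seen in 3.27% of cells with NR2F2, a factor of atrial identity (1.72 to 5.59), against 11.4% of cells without it (10.2 to 12.7). Without the clusters dominated by another sample this was 6% (2.83 to 11) against 12.5% (10.9 to 14.3), and the intervals met. NEFM was seen in 8.12% of cells with MYL7, the atrial light chain (7 to 9.36), against 16.7% of cells without it (14.1 to 19.6), and the intervals stayed apart without those clusters, at a ratio of 0.498. Of the 4 atrial markers with enough cells to read, 2 had a lower NEFM share and none a higher one, with intervals apart. For NEFL it was 3 of 4, with NPPA, the atrial natriuretic peptide, at 7.04% against 18.5%. Without those clusters NPPA gave 16.3% in 23 cells against 19.7%, and the NEFL intervals met for NPPA and NR2F2.

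In 2D, NEFM was seen in 2.71% of cells with MYH7, the slow ventricular myosin (1.48 to 4.54), against 8.17% of cells without it (7.49 to 8.88). It was seen in 4.01% of cells with MYL2, the ventricular light chain (2.23 to 6.59), against 7.97% of cells without it (7.31 to 8.67). In that sample these were the 2 of 8 ventricular markers with intervals apart, and NEFL was lower in the same cells, at 9.07% with MYH7 and 9.41% with MYL2. IRX4, a ventricular factor, did not separate NEFM in 2D, at 7.48% with and 7.79% without it. In the cardioids without PD173074, 0 of the 6 ventricular markers with enough cells had NEFM intervals apart, and the share was 13.8% with IRX3 against 9.98% without it.

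Markers of the atrioventricular canal, the region that holds the node between the chambers, went both ways. Without PD173074, NEFM was lower with TBX3, as above, and with CACNA1D, a calcium channel of pacemaker cells, at 8.95% (7.65 to 10.4) against 12.5% (10.6 to 14.6). Without the clusters dominated by another sample the CACNA1D intervals met, at 10.5% (8.83 to 12.4) and 14.8% (12 to 18). It was higher with VCAN, versican of the cardiac jelly, at 11.4% (10.2 to 12.7) against 4.15% (2.47 to 6.49), a ratio of 2.75 that was 1.6 without those clusters, where the intervals met. In 2D it was higher with MSX2, a homeobox target of BMP signalling, at 9.57% (8.47 to 10.8) against 6.57% (5.82 to 7.38), and lower with TBX20, at 6.23% (5.2 to 7.4) against 8.38% (7.6 to 9.22). RGS6, a brake on G protein signalling in the sinus node list, marked cells with less NEFM without PD173074, at 4.6% against 11.2%, and at 6.23% against 12.8% without those clusters. With PD173074 no marker separated NEFL or NEFM beyond counting error, at the low shares given above.

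Cells with proliferation markers had less NEFL, and those with TOP2A less NEFM, in the cardioids without PD173074. There NEFM was seen in 2.59% of cells with TOP2A, a topoisomerase of dividing cells (0.413 to 8.23), against 10.6% of cells without it (9.47 to 11.8). NEFL was lower with each of MKI67, TOP2A and CENPF, the 3 proliferation markers, in the same sample. GRIA4, a subunit of AMPA glutamate receptors, marked cells with more. Without PD173074, NEFM was seen in 17.7% of cells with GRIA4 (14.8 to 21) against 8.36% without it (7.26 to 9.57), and in 2D in 9.43% (8.28 to 10.7) against 6.82% (6.07 to 7.62).

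Cells with a NEFL or NEFM UMI were also compared with cells that had neither over all genes with at least 20 CPM, a description that used the same cells. Without PD173074 the leading genes were IRX1 at 23.7 against 5.17 CPM, GPC5 at 527 against 192 CPM, NDUFA4L2 at 168 against 74.1 CPM and IRX2 at 66.9 against 30.2 CPM. IRX1 and IRX2 are Iroquois homeobox factors, GPC5 is a glypican of the cell surface and NDUFA4L2 is a mitochondrial protein. HLA-DQB1, ITPR1, C5orf38, HIF1A-AS3, IGFBP2 and KRT19 followed, at 1.83-fold to 2-fold. MYL7 stood at 1371 against 3203 CPM, and TNNT2 at 3009 against 3116 CPM, so the cells with neurofilament had less of the atrial light chain and nearly the same troponin.

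Within cluster 4 alone, all 10 of these genes had an interval above 1. Of the 2D culture's own 10 leading genes, 4, 7 and 4 did so in its clusters 0, 1 and 2. Cluster 4 held 406 of the 703 positive cells per run that ranked its genes, and the share of all genes with such an interval was not measured. Nothing is therefore read from these counts. In cluster 4 IRX1 stood at 4.99-fold and GPC5 at 2.71-fold, while TBX3 stood at 0.589-fold, RSPO3 at 0.67-fold and MYL7 at 0.523-fold. GPC5 followed the same 4 kinds of cells in cluster 4 as NEFM, at 207 CPM with both TBX3 and RSPO3, 719 with TBX3 alone, 368 with RSPO3 alone and 986 with neither. IRX1 gave 6.22, 35.5, 14 and 40.5 CPM in that order, and MYL7 ran the other way, at 3452, 1499.6, 1992 and 1086 CPM.

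In 2D the differences between cells with and without neurofilament were smaller. GPC5 led, at 317 against 230 CPM (1.38-fold), followed by HLA-DQB1 at 1.37-fold, and IRX2 was at 1.29-fold. IRX1 stood at 10.6 against 5.92 CPM (1.79-fold), below the 20 CPM asked of ranked genes. With PD173074, where 100 thinned cells per run were positive, GRIA4 led at 5.74-fold, followed by SHROOM4 at 4.61-fold, GADL1 at 3.28-fold and CNTNAP5 at 2.97-fold. GADL1 and CNTNAP5 are also leading genes of cluster 6, the cluster with the highest NEFL and NEFM levels in that group. In 2D, without and with PD173074, 7432, 7546 and 7411 genes were ranked, in each group on that group's own cells. Of the 100 leading genes of each group, 11 were shared by all 3 groups, among them GPC5, GRIA4, KRT19, IGFBP2, ATP1B1 and SCN9A. The 2D culture shared 35 with the cardioids without PD173074 and 16 with those given it, and both kinds of cardioid shared 26. The overlap of lists drawn at random was not measured, so nothing is read from these counts.

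**Figure D5:**
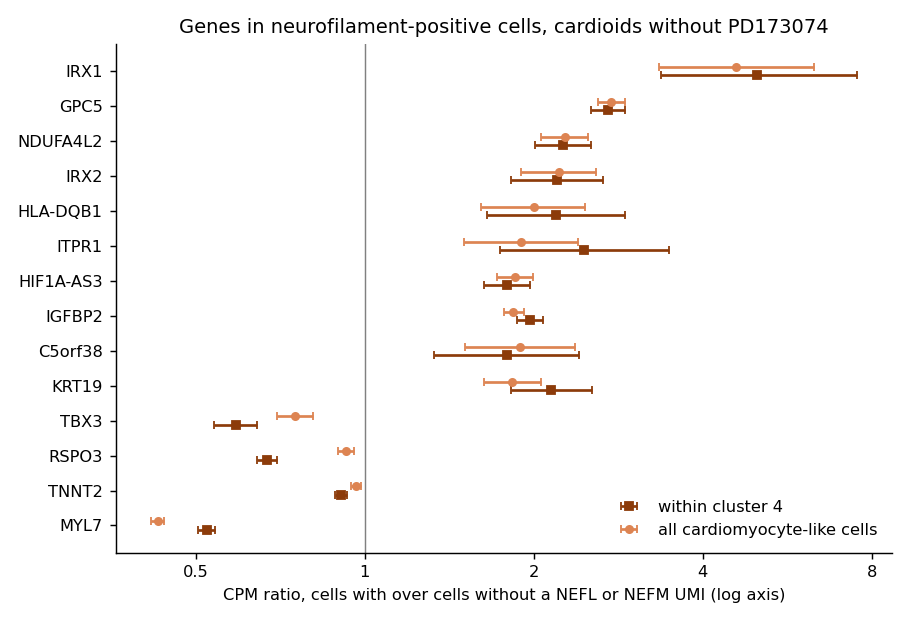
Ratio of CPM in cells with a NEFL or NEFM UMI to CPM in cells with neither, in the cardioids without PD173074. The leading genes and TBX3, RSPO3, MYL7 and TNNT2 are shown over all cardiomyocyte-like cells and within cluster 4, with 95% counting intervals. Over all cardiomyocyte-like cells, IRX1 lies at 4.58-fold and GPC5 at 2.75-fold, while TBX3 lies at 0.752-fold.

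Over the 23 units of sample and cluster, NEFM and NEFL levels as log2(CPM + 1) had a Pearson correlation of 0.926. These units share 3 samples and their depth, so the value describes these libraries. They also include the units with PD173074, whose levels chose the genes, and over the 18 units of the other samples the value was 0.906. Among 12458 genes, the 10 most like NEFM over the same units included ID4, an inhibitor of helix-loop-helix factors (0.965), RGL3 (0.954), HS3ST3B1 (0.939) and HLA-DQB1 (0.937), and the 10th was SMAD7, an inhibitory SMAD (0.928). The 10 most like NEFL included ATP1B1, a subunit of the sodium pump (0.958), C4orf3 (0.948) and RSPO3 (0.931). RSPO3 reached 0.902 with NEFM, and TBX3 reached 0.663 with NEFM and 0.556 with NEFL. Over the 18 units without the PD173074 sample, a reading added after seeing the data, RSPO3 gave 0.947 with NEFM and 0.906 with NEFL, and TBX3 gave 0.551 and 0.355.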

How the data were processed

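Single-cell RNA-seq libraries of H9 cells, made with 10x Genomics 3' chemistry per the labels' protocols, were deposited by the authors as unnormalised UMI counts per gene and cell barcode. Per the submitters' processing notes, Cell Ranger 7.0.0 and hg38 were used, with an annotation release not given in the sources used here. Cells with at least 1000 UMIs, 500 genes and at most 30% mitochondrial UMIs were kept (Python 3.11.15, scanpy 1.11.5). Each barcode's mean profile over runs was clustered with 2000 variable genes, 30 components, 15 neighbours and Leiden resolution 0.6 (leidenalg 0.10.2). Clusters whose mean log2(CPM + 1) over 11 cardiomyocyte markers reached 9 were called cardiomyocyte-like, a level set after seeing the data. The doublet caller marked 0%, 0.0566% and 0.0218% of cells, which is too few to have worked, so no doublets were removed.

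CPM was taken from UMIs summed over the cells of a run. Ratios between groups carry exact intervals from the mean count per run, and shares carry exact binomial (Clopper-Pearson) intervals, at 95%. A count of 0 is given with the limit of 3 counts. Since each group is 1 sample, no test between groups was run and no p-value is given. On simulated counts the 2-fold rule called 50 of 50 genes changed 3-fold and 0 of 50 changed 1.5-fold in the comparison with against without PD173074, over 10347 genes. The simulated counts held only the counting error that the intervals assume. They therefore check the working of the rule and do not bear on variation between cells, runs or cultures.

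NEFL, NEFM, the gene lists and the comparisons were chosen with earlier results of these data known. Genes named are the members, measured genes of the filament, neuron, handling and regulator lists, up to 4 of each other list, the 10 most like each member over units, the 10 with the largest ratio in positive cells with at least 20 CPM there, and 5 coding neighbours on each side. Subtype markers, leading genes of clusters and genes shared between groups were named after their values were seen. The alternatives changed the scaling, filters, resolution, thinning depth or thresholds, or left out a run. Leaving out cluster 11, leaving out clusters dominated by another sample, reading cluster 4 alone, repeating the marker shares, reading unthinned cells with at least 2000 UMIs, leaving the PD173074 units out of the correlations, leaving NEFL and NEFM out of their list, and comparing runs over all genes were chosen after seeing the data. No sequence is shown, and a few genes that the rule names are not reported here.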

Additional observations from a re-analysis of the deposited data

Results flagged for a closer look

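In the cardioids without PD173074, run 3 stood apart from the other 4 runs of the same droplets for both genes. In cardiomyocyte-like cells of run 3 NEFL was at 140 CPM, against 112 to 118 CPM in the others, and NEFM at 93.7 CPM, against 73.2 to 74.7 CPM. After thinning, NEFL was seen in 21.2% of cells of that run against 17.1% to 18%, and NEFM in 12% against 9.68% to 10.2%. The gap to the nearest run was 0.797, 0.926, 0.784 and 0.758 of the range, above Dixon's critical value of 0.71 for 5 values, which here are runs of the same droplets and not samples. Chance alone marks about 1 in 20 groups this way. Run 3 stood apart by the same measure for 19.9% of the 10171 genes at 10 CPM or more (8.09% higher and 11.8% lower), against 0.246% to 0.442% in each other run, so it did so for many genes besides the pair. TBX3 went the other way in the same run, at 227 CPM against 265 to 272 CPM. Run 3 was also the shallowest library, at 12266166 UMIs, and the part of depth in these values was not tested.

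NEFM also appeared outside the cardiomyocyte-like cells. In the endoderm-like cluster 14 of the cardioids with PD173074, 55 cells held 20 NEFM UMIs per run. Of these, 19.7 lay in 1 cell, and 2 cells had any NEFM in any run. NEFL in that cluster was at 0.333 UMIs per run.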

How the results depend on the processing

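No paired analysis was possible because equal replicate numbers mark repeat runs of separate droplet sets and no test between groups was run. Over 278 alternatives of 36 results, 231 stayed within the counting interval or within 1.5 times for a count, 45 moved beyond it and 2 turned in direction. Leaving out 1 run gave log2 ratios with against without PD173074 of -3.07 to -2.96 for NEFL and -4.29 to -4.16 for NEFM.

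Without a filter on cells the NEFL log2 ratio with PD173074 was -3.36 against cardioids without it and -3.13 against 2D, and over all filtered cells -3.36 and -3.14. Leaving out clusters dominated by another sample gave -3.27 for NEFL and -4.70 for NEFM with against without PD173074, and 0.32 and 1.15 without PD173074 against 2D. That setting also gave shares without PD173074 of 19.6% for NEFL and 12% for NEFM, and ratios of shares of 0.723 (NEFL) and 0.356 (NEFM) in cells with TBX3 and RSPO3 over neither, and 1.6 by VCAN. The cause was not tested.

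Depth set the shares. In 2D, without and with PD173074, NEFL was seen in 9.52%, 9.66% and 1.09% of cells thinned to 1000 UMIs and 33.9%, 34.9% and 8.11% unthinned. NEFM was seen in 4.12%, 5.82% and 0.413%, and unthinned in 15.7%, 20% and 2.29%. Unthinned, the ratio of shares in cells with TBX3 and RSPO3 over neither was 1.86 (NEFL) and 2.14 (NEFM) in 2D, and 2.27 (NEFL) without PD173074. For NEFM without PD173074 it turned from 0.618 to 1.81. In cluster 4 it was 0.787 (NEFL) and 0.455 (NEFM). In unthinned cells with at least 2000 UMIs it was 1.63 (NEFL) and 1.94 (NEFM) in 2D, 1.9 (NEFL) and 1.48 (NEFM, turned) without PD173074, and 0.733 and 0.42 in cluster 4. By marker, unthinned NEFM ratios were 0.564 for NR2F2, 0.749 for MYL7 and 7.85 for VCAN without PD173074 and 0.623 for MYH7 in 2D, and 0.239 for MYL2 at 1000 UMIs.

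With NEFL and NEFM left out of their list, 1 intermediate filament gene was lower with PD173074, against either other group, in place of 3. At 1.5-fold, 3 intermediate filament genes were higher without PD173074 than in 2D, 2 were higher with PD173074 than in 2D, and 1 neuron gene was lower with PD173074 than without. All groups are single samples, so these settings bear on processing and not on variation between cultures.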

Other observations

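Outside the cardiomyocyte-like cells, NEFL and NEFM were read in the stromal-like cluster 7, led by COL8A1, ITGA11 and LOX. There NEFL stood at 17.8 CPM in 2D (15 to 21) and 17.4 CPM without PD173074 (10.6 to 26.9), and NEFM at 10.8 CPM (8.68 to 13.3) and 10.4 CPM (5.33 to 18.2). In the cartilage-like cluster 5, led by MATN4 and ACAN, NEFL stood at 18.1 CPM in 2D (11.6 to 26.8), 4.57 CPM without PD173074 (1.23 to 11.8) and 1.6 CPM with it (0.733 to 3.05). The point values put the 2D culture highest in these cells, with an interval that just met that of the cardioids without PD173074. The epithelial-like cluster 10, led by SFRP2, GABRP and VTCN1, gave NEFL at 1.78 CPM without PD173074 and 1.65 CPM with it. Free RNA in the droplets was not measured apart from these cells, and its part in their levels was not tested.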
